A study of Mus musculus with 8 samples.

Results

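The genes described are 9 stromal transcription factors and regulators of the embryonic kidney: Foxd1, Tbx18, Tbx2, Tbx3, Meis1, Meis2, Tcf21, Fat4 and Pdgfra. They were chosen by name, with earlier results of these data known. The array carried 12 probes for them through RefSeq accessions, among probes for 22911 named genes. All 12 probes were well above background in 8 of 8 mutant and 8 of 8 wild-type channels, so each of the 9 genes was among the 16013 genes tested. Tbx3, Meis1 and Meis2 had a pair of probes each, and the brighter one stood for the gene.

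The arrays compared whole mouse kidneys at embryonic day 14.5. Mutant kidneys were labelled as a conditional Mdm4 knockout made with a Hoxb7Cre transgene, and the control kidneys as wild type. The 4 mutant and 4 wild-type RNAs were hybridised as 4 pairs, and every pair was repeated with swapped dyes, which gave 8 two-colour arrays and n = 4 pairs. Hoxb7 regulatory sequence drives Cre in the ureteric bud and the epithelium that grows from it. Kidney stroma forms outside that lineage. The RNA came from whole kidneys, so the values of the 9 genes are sums over all their cell types. The number of embryos behind an RNA is not stated in the labels, nor whether the wild-type embryos carried the transgene or a floxed allele. The p-values therefore measure the spread of the 4 pairs and nothing beyond it, and part of that spread may be technical.

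The stroma of the developing kidney surrounds the nephron progenitors and the branching ureteric bud and sends signals to both. Foxd1 marks the progenitors of the cortical and medullary stroma, whereas Tbx18 marks the mesenchyme around the future ureter. Tbx2 and Tbx3, related T-box repressors, act in the ureteric mesenchyme of the mouse. Meis1 and Meis2 are homeobox proteins found through much of the stroma, Tcf21 is a helix-loop-helix factor of mesenchyme and podocytes, Fat4 is a giant cadherin of the stroma that signals to nephron progenitors, and Pdgfra is a receptor for platelet-derived growth factors.

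The promoters of Tbx18 and Foxd1 are shown because these were the members with the smallest p-values. Each window covers the 250 bases before the RefSeq start site in GRCm38.p6, read on the strand of the gene. Capitals mark matches to a p53 half-site in Tbx18 and to the MEIS core in Foxd1. The Tbx18 window lies at chr9:87731261-87731510 on the minus strand and that of Foxd1 at chr13:98353995-98354244 on the plus strand.
Tbx18: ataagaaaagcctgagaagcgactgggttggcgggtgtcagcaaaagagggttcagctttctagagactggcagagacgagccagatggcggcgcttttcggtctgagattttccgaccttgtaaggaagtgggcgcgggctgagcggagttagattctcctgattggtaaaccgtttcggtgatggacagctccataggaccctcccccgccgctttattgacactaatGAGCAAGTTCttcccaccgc
Foxd1: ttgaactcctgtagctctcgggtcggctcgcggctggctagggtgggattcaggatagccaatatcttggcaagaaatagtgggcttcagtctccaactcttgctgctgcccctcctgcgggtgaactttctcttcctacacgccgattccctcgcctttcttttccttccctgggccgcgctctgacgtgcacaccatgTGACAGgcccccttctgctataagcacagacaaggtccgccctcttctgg

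Among the 7 members with a promoter in the table, the p53 half-site matched in Tbx18 alone, against 7.13% of all 32851 promoter windows of this length. The MEIS core TGACAG matched in Foxd1 alone (15.9% of all windows) and the T-box core AGGTGT in Pdgfra alone (11.8% of all windows). The E-box CAGCTG, found in 13% of windows, and the TEAD core GGAATG, found in 12.6%, had 0 matches in these 7 windows. Both strands were searched, and the motifs did not overlap in the windows shown. A match is a stretch of letters and not a measured binding site.

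Well above background were 60.7% to 70.2% of the spots of a channel, and the number of arrays limits the precision. The median standard error over all tested genes was 0.07 on the log2 scale. Mdm4 had 4 probes above background, and its brightest probe gave log2 ratios of mutant over wild type of -0.03, -0.06, -0.28 and -0.35 in pairs 1 to 4 (mean -0.18 ± 0.07, SE, n = 4 pairs, limma adjusted p = 0.471). The means of the other 3 probes were -0.10, -0.14 and -0.11, and 2 of them were above 0 in pair 1, 1 of these also in pair 2. Whether these probes lie inside the deleted part is not stated in the labels, so they do not check the labels. Of kidney cell types, 16 of 16 nephron progenitor genes, 14 of 14 podocyte genes and 20 of 20 ureteric epithelium genes on the array passed the filter on dim probes. The RNAs of a pair differed in sex-linked transcripts. The mean log2 ratio of 4 Y-linked transcripts was 2.76, 1.31, -1.64 and 2.83 in pairs 1 to 4, so that pair 3 differed in the opposite direction from the others. Xist, also sex-linked, was at -2.71, -0.23, 2.48 and -2.80, so it was near 0 in pair 2. With sex and genotype mixed in this way over 4 pairs, their parts in a ratio cannot be told apart.

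Mutant kidneys had higher mean values than wild-type kidneys for 7 of the 9 genes, against 53.9% of all tested genes, with Tbx18 farthest above 0 (1.49-fold). Tbx2 and Tbx3 had lower means, at 0.825-fold and 0.823-fold. None of the 9 passed limma's test at an adjusted p of 0.05, where 0% of all tested genes did, and the smallest adjusted p of any tested gene was 0.0750. At an unadjusted p under 0.05, Tbx18, Foxd1 and Fat4 were higher, 3 of 9 against 7.01% of all tested genes, and Tbx2 was lower, 1 of 9 against 3.60%. The median log2 ratio of the 9 genes was 0.16, against 0.01 for all tested genes. Because the genes were chosen with earlier results of these data known, these shares and medians are a description and not a test of the set. In bulk tissue, more cells of a type and more RNA per cell cannot be told apart.

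**Figure D1:**
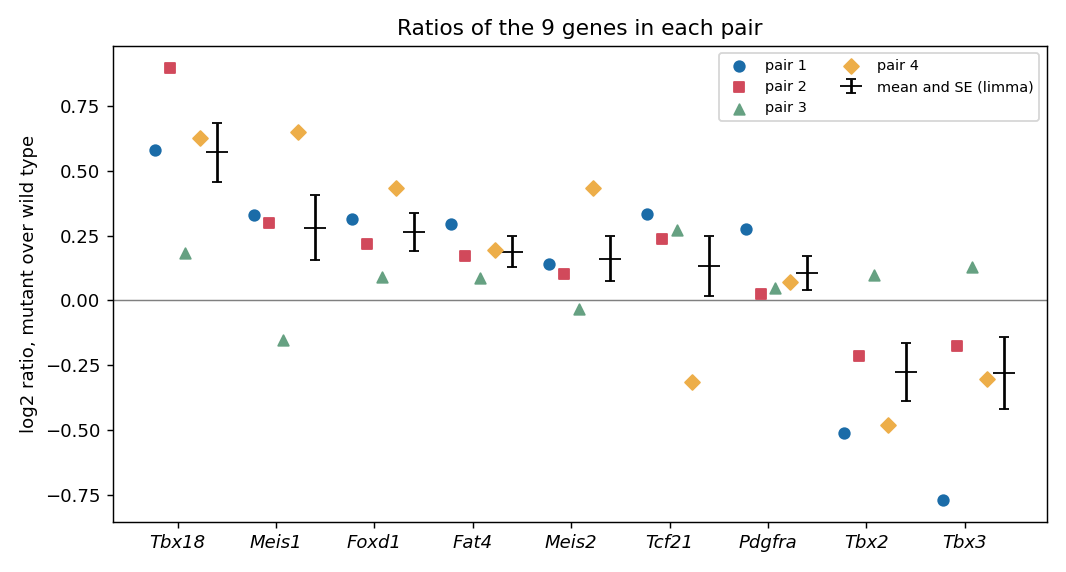
Log2 ratios of mutant over wild type for the 9 genes (vertical axis), with 1 symbol per pair, each the mean of 2 dye-swapped arrays, and a black bar for the mean with its limma standard error. All 4 values lie above 0 for Tbx18, Foxd1, Fat4 and Pdgfra, and for Tbx2 and Tbx3 only pair 3 lies above 0.

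Tbx18, which the ureteric mesenchyme needs for its identity, had log2 normalised intensities of 12.07, 11.03, 11.00 and 11.36 in mutant kidneys of pairs 1 to 4, against 11.49, 10.13, 10.82 and 10.73 in wild-type kidneys. The mutant was higher in every pair, but the ranges of the groups overlapped, since the intensities of pair 1 lay above the others in both genotypes. The log2 ratios were 0.58, 0.90, 0.18 and 0.62 in pairs 1 to 4, with a mean of 0.57 ± 0.11 (SE, n = 4 pairs, limma adjusted p = 0.304, 95% interval 0.29 to 0.85). Tbx18 was higher on 8 of 8 arrays, as were 3.35% of all tested genes. Its log2 ratio averaged 0.54 where the mutant RNA carried Cy5 and 0.60 where it carried Cy3. Its limma adjusted p was 0.0473 in a fit of all 8 arrays with the pair as a random block and a dye term. That fit took 1 correlation between the arrays of a pair, 0.586, for all genes. The Tbx18 arrays of a pair were closely alike, at 0.51 and 0.64, 0.85 and 0.94, 0.18 and 0.19, and 0.61 and 0.64. The p of the block fit may therefore be too small for Tbx18. With median centring in place of loess the limma adjusted p was 0.0445, where the median of all genes was 0.14 and Tbx18 was at 0.73.

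Foxd1, the forkhead gene of stromal progenitors, had log2 normalised intensities of 12.16, 12.10, 11.99 and 12.21 in the mutants of pairs 1 to 4, against 11.84, 11.89, 11.89 and 11.78 in the wild types. All mutant intensities lay above all wild-type intensities, and Foxd1 was the only one of the 9 genes, and of the 12 probes, without overlap in this direction, against 3.30% of all tested genes. The opposite, all mutant below all wild-type intensities, was seen in 0 of 9 genes and in 1.52% of all tested genes. The log2 ratios were 0.31, 0.22, 0.09 and 0.43 (mean 0.26 ± 0.07, SE, n = 4 pairs, limma adjusted p = 0.398). The size depended on the dye orientation, with a mean of 0.49 where mutant RNA carried Cy5 and 0.04 where it carried Cy3, and 2 of the 4 arrays with Cy3 on the mutant were below 0.

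**Figure D2:**
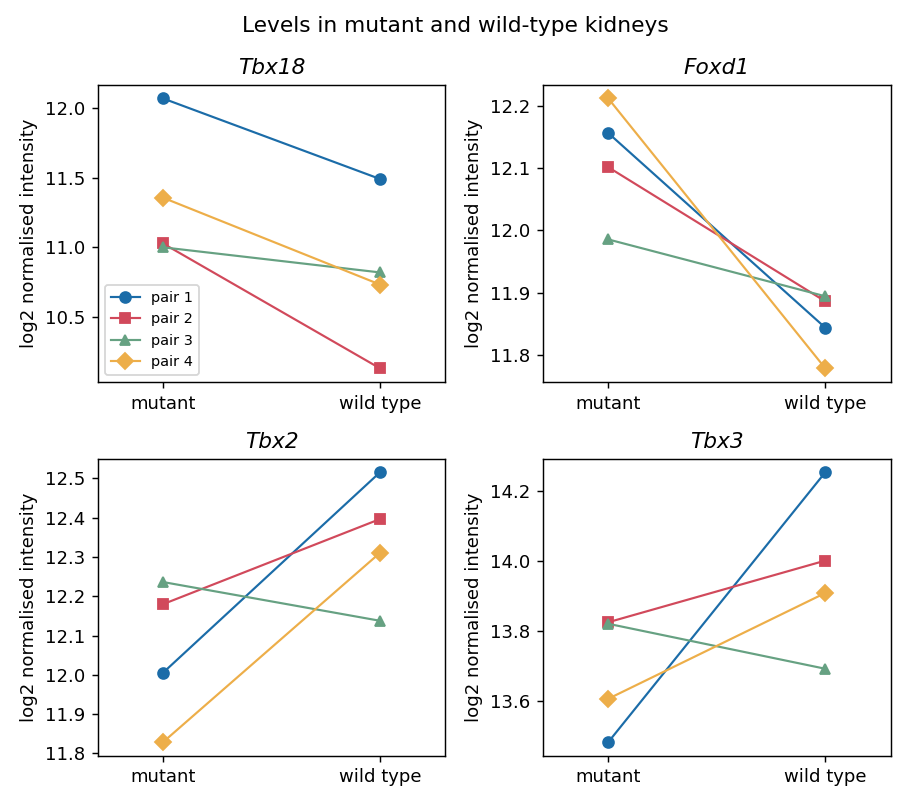
Log2 normalised intensity (vertical axes, which differ between panels and do not start at 0) of Tbx18, Foxd1, Tbx2 and Tbx3 in mutant (left) and wild-type kidneys (right), with a line joining the RNAs of a pair. Lines fall towards wild type in 4 of 4 pairs for Tbx18 and Foxd1, and climb towards wild type in 3 of 4 pairs for Tbx2 and Tbx3.

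Tbx2 and Tbx3 stood on the other side of 0 from Tbx18. Tbx2 had log2 normalised intensities of 12.01, 12.18, 12.24 and 11.83 in mutant kidneys, against 12.52, 12.40, 12.14 and 12.31 in wild-type kidneys. The groups overlapped because of pair 3, the only pair with the mutant above the wild type. The log2 ratios of Tbx2 were -0.51, -0.22, 0.10 and -0.48 (mean -0.28 ± 0.11, SE, n = 4 pairs, limma adjusted p = 0.467). Without pair 3 the mean was -0.40 (adjusted p = 0.226), and with the Y-linked ratio of the pair as a covariate it was -0.10 (adjusted p = 0.803).

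The brighter Tbx3 probe had log2 normalised intensities of 13.48, 13.82, 13.82 and 13.61 in mutants, against 14.25, 14.00, 13.69 and 13.91 in wild types. Its log2 ratios were -0.77, -0.18, 0.13 and -0.30 (mean -0.28 ± 0.14, SE, n = 4 pairs, limma adjusted p = 0.528), so that pair 3 again lay above 0. The dimmer Tbx3 probe was below 0 in all 4 pairs, at -0.59, -0.45, -0.10 and -0.92 (mean -0.51 ± 0.13, SE, n = 4 pairs), but in pair 3 its arrays disagreed, with -0.68 with mutant RNA in Cy5 and 0.48 with it in Cy3. No gene of the 9 was lower in all 4 pairs on its brighter probe, where 7.84% of all tested genes were. Without pair 1 the brighter probe averaged -0.12, and with the Y-linked covariate -0.08. It averaged -0.49 where mutant RNA carried Cy5 and -0.07 where it carried Cy3.

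Tbx18 lay above both of these T-box genes in every pair, by little in pair 3. The log2 ratio of Tbx18 exceeded that of Tbx2 by 1.09, 1.12, 0.08 and 1.11 in pairs 1 to 4 (mean 0.85 ± 0.51, SD, n = 4 pairs), and it exceeded that of Tbx3 by 1.35, 1.07, 0.05 and 0.93. Tbx2 and Tbx3 themselves differed by a mean of 0.0025 ± 0.19 (SD, n = 4 pairs). These differences were picked after the values were seen and were not tested.

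The ratios of Tbx2 and Tbx3 lay near those of genes of the ureteric epithelium. That list of 20 genes, which includes the GDNF receptor genes Ret and Gfra1 and the keratin genes Krt8 and Krt18, had a median log2 ratio of -0.58, -0.32, 0.06 and -0.54 in pairs 1 to 4. Of its 20 genes 19 had a mean below 0, 7 were lower in every pair (7.84% of all tested genes were), and 0 passed limma's adjusted test. Some of the 19 lay close to 0, such as Cdh1 and Wnt7b at -0.04, Aqp2 at -0.03 and Krt19 at -0.01. Ret was not lower in every pair, with -1.35, 1.09, -0.42 and -0.57 in pairs 1 to 4. The median of the 20 gene means was -0.33, with -0.17 both without pair 1 and with the Y-linked covariate, and -0.15 with mutant RNA in Cy3. Summed over the list, the normalised intensity ran from 145600 to 172200 in mutants and from 165400 to 229000 in wild types, and each of the 20 genes passed the filter on dim probes. Sox8 was at -0.40 ± 0.09, Gfra1 at -0.52 ± 0.12, Wnt9b, which induces nephron formation, at -0.60 ± 0.15 and Krt8 at -0.42 ± 0.12 (SE, n = 4 pairs, limma adjusted p from 0.361 to 0.406). The part of the epithelium in the values of Tbx2 and Tbx3 was not tested.

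**Figure D3:**
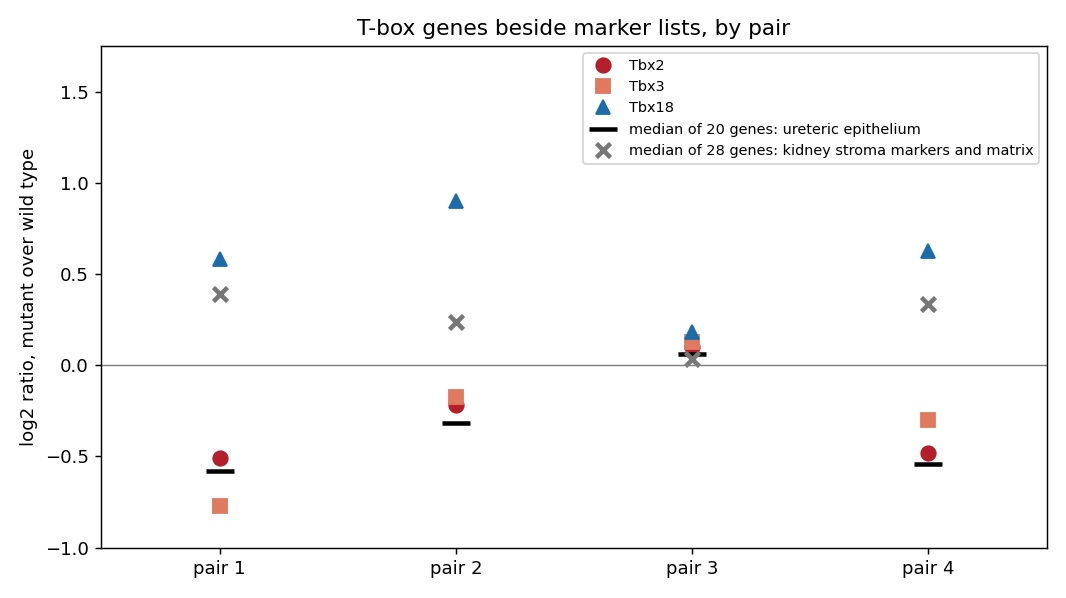
Log2 ratios of mutant over wild type (vertical axis) of Tbx2, Tbx3 and Tbx18 in each pair, beside the medians of 20 ureteric epithelium genes and 28 genes of kidney stroma markers and matrix. In pairs 1, 2 and 4 Tbx2 and Tbx3 lie below 0 near the epithelial median and Tbx18 lies above the stromal median, and in pair 3 all of them lie between 0.03 and 0.18.

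Of the Hedgehog target genes in a list of ureteric mesenchyme and smooth muscle, Ptch1, which encodes the Hedgehog receptor, had log2 ratios of -0.59, -0.57, -0.10 and -0.79 in pairs 1 to 4 (mean -0.51 ± 0.11, SE, n = 4 pairs, limma adjusted p = 0.365). Gli1, a transcription factor gene switched on by the pathway, was at -0.20, -0.21, -0.12 and -0.46 (mean -0.25 ± 0.07, SE, n = 4 pairs, limma adjusted p = 0.406). Both were lower in every pair, as were 7.84% of all tested genes. That held in pair 3 too, where Tbx2 and the brighter Tbx3 probe were above 0. With mutant RNA in Cy5 Ptch1 averaged -0.84 and Gli1 -0.17, and with it in Cy3 they averaged -0.19 and -0.33. Other genes of that list went the other way: Car3, a carbonic anhydrase gene, was at 0.36 ± 0.09 and the growth factor gene Wnt5a at 0.21 ± 0.06. Car3 averaged 0.07 with mutant RNA in Cy5 and 0.65 with it in Cy3, and Wnt5a 0.09 and 0.34. Of the 15 tested genes of the list 5 were higher and 10 lower, with a median of -0.06 and 0 past the adjusted threshold. That median was -0.15 without pair 3, and it turned to 0.06 with mutant RNA in Cy5.

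The homeobox genes Meis1 and Meis2 were higher in pairs 1, 2 and 4 and below 0 in pair 3. The brighter Meis1 probe had log2 normalised intensities of 14.82, 14.62, 14.57 and 15.11 in mutants, against 14.50, 14.32, 14.72 and 14.46 in wild types. Its log2 ratios were 0.33, 0.30, -0.16 and 0.65 (mean 0.28 ± 0.13, SE, n = 4 pairs, limma adjusted p = 0.497). The dimmer Meis1 probe, designed to another transcript, gave 0.33, 0.34, -0.70 and 0.37 (mean 0.09 ± 0.19, SE, n = 4 pairs). The probes of Meis1 agreed in sign in every pair and were farthest apart in pair 3. Without pair 3 the brighter probe was at 0.43, without pair 4 at 0.16 and with the Y-linked covariate at 0.09.

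Meis2 had log2 normalised intensities of 14.25, 14.16, 14.06 and 14.17 in mutants on its brighter probe, against 14.11, 14.06, 14.09 and 13.74 in wild types. The log2 ratios were 0.14, 0.10, -0.03 and 0.44 (mean 0.16 ± 0.09, SE, n = 4 pairs, limma adjusted p = 0.548), with a mean of 0.07 without pair 4 and 0.06 with the Y-linked covariate. The mean was 0.04 with mutant RNA in Cy5 and 0.28 with it in Cy3. On the dimmer probe the ratios were 0.31, 0.33, -0.01 and 0.54 (mean 0.29 ± 0.09, SE, n = 4 pairs). Of the other TALE homeobox genes, 4 of 9 were higher and 5 lower, with a median of -0.0046, 0 past the adjusted threshold and 0 at an unadjusted p under 0.05. Meis3, a further Meis gene, was at 0.10 ± 0.12 (SE, n = 4 pairs).

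Fat4 and Pdgfra, the members that encode cell-surface proteins, were higher in all 4 pairs. With Tbx18 and Foxd1 they made 4 of 9 genes, chosen with earlier results of these data known, against 12.1% of all tested genes. Fat4 had log2 normalised intensities of 10.70, 10.68, 10.54 and 10.98 in mutants, against 10.40, 10.50, 10.45 and 10.79 in wild types. The log2 ratios of Fat4 were 0.29, 0.17, 0.09 and 0.20 (mean 0.19 ± 0.06, SE, n = 4 pairs, limma adjusted p = 0.425), the smallest spread between pairs of the 9 genes. They rested on the arrays that carried the mutant in Cy3, where the mean was 0.39, while the mean was -0.02 with the mutant in Cy5.

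In the list of genes of Fat4, its ligand Dchs1 and the Hippo pathway, 12 of 24 were higher and 12 lower, with a median of -0.0044 and 0 past the adjusted threshold. The genes with the smallest p were Tead1, a transcription factor gene of the pathway, at 0.26 ± 0.07, the kinase gene Lats2 at 0.23 ± 0.07, Ccn2, a target of the pathway, at 0.34 ± 0.10, and the kinase adaptor gene Mob1b at -0.18 ± 0.06 (SE, n = 4 pairs, limma adjusted p from 0.397 to 0.424). Tead1, Lats2 and Ccn2 were higher in every pair, 3 of 24 genes against 12.1% of all tested genes. Mob1b was among 5 of 24 genes lower in every pair, against 7.84% of all tested genes. Tead1 averaged 0.47 with mutant RNA in Cy5 and 0.06 with it in Cy3, and Mob1b 0.02 and -0.39.

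Pdgfra had log2 normalised intensities of 13.11, 12.87, 12.77 and 12.85 in mutants, against 12.84, 12.84, 12.73 and 12.78 in wild types. Its log2 ratios were 0.28, 0.02, 0.05 and 0.07 (mean 0.10 ± 0.07, SE, n = 4 pairs, limma adjusted p = 0.587). Pair 1 carried most of the mean, which was 0.05 without it and 0.07 with the Y-linked covariate. Pdgfra was higher on 5 of 8 arrays. With mutant RNA in Cy5 its ratios were 0.39, -0.02, -0.02 and -0.02 in pairs 1 to 4, and with it in Cy3 they were 0.16, 0.06, 0.12 and 0.17. Of 6 genes for the ligands and the other receptors or receptor-like proteins of the family 4 were higher and 0 passed the adjusted threshold. Pdgfd, a ligand gene, was at 0.28 ± 0.06 and higher on 8 of 8 arrays (SE, n = 4 pairs, limma adjusted p = 0.344), and Pdgfrb, the receptor gene of pericytes and stroma, was at 0.15 ± 0.06 (SE, n = 4 pairs, limma adjusted p = 0.469).

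Tcf21 was the only member below 0 in pair 4 alone. It had log2 normalised intensities of 13.26, 12.91, 12.95 and 12.51 in mutants, against 12.92, 12.67, 12.68 and 12.83 in wild types. The log2 ratios were 0.33, 0.24, 0.27 and -0.31 (mean 0.13 ± 0.12, SE, n = 4 pairs, limma adjusted p = 0.686), with pair 4 alone below 0. The mean was 0.28 without pair 4, 0.07 without pair 1, 0.09 without pair 3 and 0.21 with the Y-linked covariate. In pair 4 the arrays gave -0.65 with mutant RNA in Cy5 and 0.02 with it in Cy3. The genes of the E proteins that pair with Tcf21, all 3 above 0 on average, had Tcf12 at 0.25 ± 0.10, Tcf4 at 0.19 ± 0.14 and Tcf3 at 0.03 ± 0.09 (SE, n = 4 pairs). Tcf12 was at 0.66 with mutant RNA in Cy5 and at -0.15 with it in Cy3. The median of these 3 genes, 0.19, turned to -0.02 with the median of a gene's probes and to -0.02 with mutant RNA in Cy3.

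Podocytes also express Tcf21, and 13 of 14 podocyte genes had a mean above 0, with a median log2 ratio of 0.27 and medians of 0.05, 0.19, 0.34 and 0.42 in pairs 1 to 4. The summed normalised intensity of that list was 223000 to 252200 in mutants and 193300 to 212500 in wild types. Bright genes weigh most in such a sum. Some of the 14 genes lay near 0, such as Kirrel at 0.06 and Lmx1b at -0.01. Of the genes in the list 7 were higher in every pair, against 12.1% of all tested genes, and 0 passed the adjusted threshold. In pair 4, where Tcf21 was lowest, the podocyte median was highest. The part of podocytes in the value of Tcf21 was not tested.

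**Figure D4:**
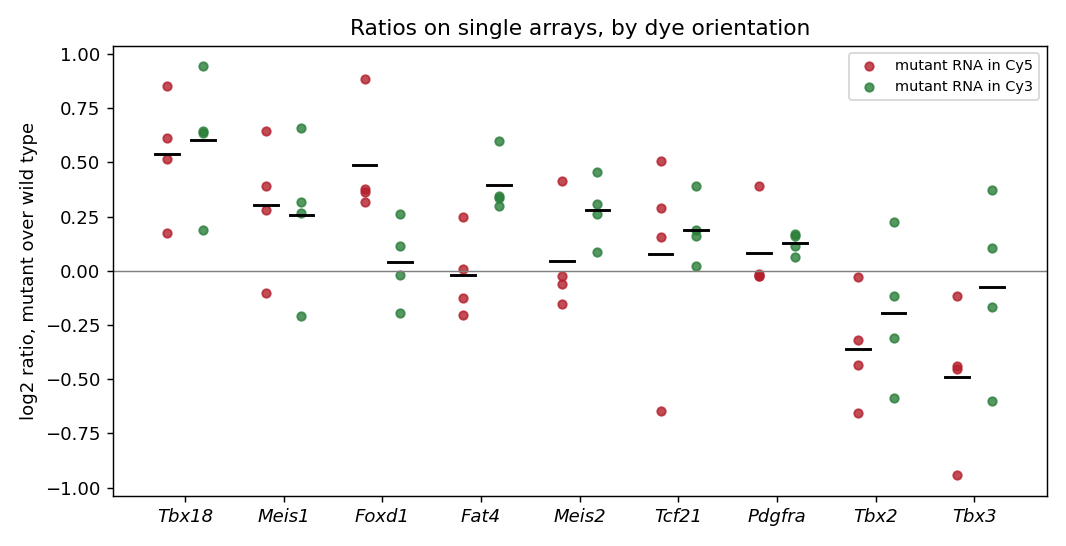
Log2 ratios of mutant over wild type (vertical axis) on single arrays, with mutant RNA in Cy5 (red) or in Cy3 (green), 4 arrays each, and a black bar for their mean. Tbx18 lies above 0 on 8 of 8 arrays with close means of 0.54 and 0.60, whereas Foxd1 (0.49 and 0.04) and Fat4 (-0.02 and 0.39) differ between orientations.

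Other genes of stroma mostly showed values on the same side as 7 of the 9 members. Their lists were also chosen with earlier results of these data known, so they are no separate test of the members. Of 37 other stromal and mesenchymal transcription factor genes 29 were higher and 8 lower, where 53.9% of all tested genes had a mean above 0. The list had a median log2 ratio of 0.15 and 0 genes past the adjusted threshold. That median was 0.09 without pair 4 and 0.07 with the Y-linked covariate. The homeobox gene Prrx2 was at 0.33 ± 0.08, the nuclear receptor gene Nr2f1 at 0.30 ± 0.08 and the zinc finger gene Gata6 at 0.34 ± 0.11, while Osr2 was at -0.31 ± 0.10 (SE, n = 4 pairs, limma adjusted p from 0.397 to 0.424). Osr2 gave -0.40, -0.33, 0.01 and -0.53 in pairs 1 to 4, and like Tbx2 and Tbx3 it was above 0 in pair 3 alone.

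The 28 genes of kidney stroma markers and matrix had a median log2 ratio of 0.24, and medians of 0.39, 0.24, 0.03 and 0.34 in pairs 1 to 4. Of these genes 26 were higher, against 53.9% of all tested genes, and 13 were higher in every pair, against 12.1%. Among them were the matrix genes Tnc at 0.46 ± 0.06, Col3a1 at 0.36 ± 0.05 and Lum at 0.67 ± 0.10, and the Wnt modulator gene Dkk2 at 0.48 ± 0.09 (SE, n = 4 pairs, limma adjusted p from 0.208 to 0.304). As with Tbx18, Foxd1 and Fat4, the median of this list was lowest in pair 3. With the Y-linked covariate it was 0.15, and with mutant RNA in Cy5 0.16. The 2 genes below 0 were chosen after their values were seen. Thy1, which encodes a cell-surface glycoprotein, had log2 ratios of -0.45, -0.43, 0.09 and -0.56 (mean -0.34 ± 0.11, SE, n = 4 pairs, limma adjusted p = 0.426), and like Tbx2 and Tbx3 it was above 0 in pair 3 alone. Aldh1a2, the retinoic acid synthesis gene of cortical stroma, was at -0.09 ± 0.07 (SE, n = 4 pairs).

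Of the T-box genes outside the members, 5 passed the filter, and 9 others did not. Tbx10 was at -0.22 ± 0.09 (SE, n = 4 pairs, limma adjusted p = 0.456), and its pairs gave -0.28, -0.26, 0.06 and -0.42, while Tbx1, Tbx6, Tbx21 and Mga lay between -0.03 and 0.08.

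Markers of other cell types varied beside these values. Macrophage genes were higher in 14 of 14, with a median log2 ratio of 0.26 and a summed normalised intensity of 13360 to 18760 in mutants and 11540 to 14230 in wild types. Their medians were 0.40, 0.02, 0.21 and 0.37 in pairs 1 to 4, so the macrophage genes were closest to 0 in pair 2, where Tbx18 was highest. Medians were 0.03 for 16 nephron progenitor genes, 0.05 for 12 endothelial genes, -0.09 for 5 adrenal cortex genes and 0.03 for 7 skeletal muscle genes, with 0 past the adjusted threshold in any of these lists. Their part in the values of the 9 genes was not tested.

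The tested genes whose ratios were nearest to each member over the 8 arrays, by Euclidean distance on the log2 scale, are given as a description of 8 arrays that share 4 pairs of RNAs. Nearest to Tbx18 was Anxa8 (distance 0.50), with log2 ratios of 0.67, 0.70, 0.22 and 0.76 in pairs 1 to 4. Nearest to Tbx2 was Capn5 (0.23) and nearest to Tbx3 was Grhl2 (0.39), whose log2 ratios were -0.69, -0.26, 0.15 and -0.19. Dusp12 was nearest to Foxd1 (0.33), Cdh2 to Meis1 (0.23), Sipa1l2 to Meis2 (0.17), Ttc5 to Tcf21 (0.34), Sh3pxd2a to Fat4 (0.24) and Hrc to Pdgfra (0.19).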

How the data were processed

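Two-colour arrays measured RNA of whole mouse kidneys. Per the file headers the deposited scanner files hold median spot and local background intensity, processed signals and flags from Agilent Feature Extraction 10.7.3.1, whereas the submitters' processing notes name 8.5.1.1. The series table was deposited as log10 ratios (Cy5 over Cy3), within 0.005 of the scanner files and not turned for the dye swap. All 8 arrays lay on 1 slide, so the slide could not be tested as a batch.

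With limma 3.58.1 in R 4.3.3, background was corrected by normexp (offset 50) and arrays normalised by loess with control and outlier spots at weight 0. Ratios were turned to mutant over wild type and the 2 arrays of a pair averaged. The pairing comes from the shared arrays. A probe was kept if 6 or more of the 8 channels of either genotype were well above background (34594 of 56605 probes). Probes were named through RefSeq accessions (GRCm38.p6), and 32994 of all 56605 probes, kept or not, had a name. Each gene took its brightest kept probe. Ratios were tested against 0 with lmFit and eBayes, two-sided, Benjamini-Hochberg adjusted over 16013 genes, on steps checked with simulated data. Levels are log2 intensities after loess and quantile scaling of the average intensity (Aquantile). List sums use the linear scale. Intervals and standard errors come from the fit, and for second probes from a fit over all kept probes.

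The 9 genes and all lists were chosen with earlier results of these data known. The text names all members, up to 4 genes per list by smallest p, and the nearest genes by distance among those with an official symbol, leaving out clone, accession and predicted-gene names. One gene that the rule named is not reported here. Alternatives changed the background, normalisation, filter, probe rule or dye orientation, took the deposited table, left out each pair, or added a pair block or a Y-linked covariate. Promoter sequences are from RefSeq (GRCm38.p6), which held 7 of the 9 genes.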

Additional observations from a re-analysis of the deposited data

Results flagged for a closer look

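In 36 groups of 4 values (the ratios, the mutant intensities and the wild-type intensities of 12 probes), 5 held a value far from the other 3 by Dixon's test at the 95% level, which chance gives in about 1 of 20 groups. The dimmer Meis1 probe had a log2 ratio of mutant over wild type of -0.70 in pair 3, against 0.33 to 0.37 in the other pairs. The same probe had a mutant log2 intensity of 10.37 in pair 4, against 9.43 to 9.56 in the other mutants. The dimmer Tbx3 probe had a mutant log2 intensity of 10.60 in pair 4, against 11.51 to 11.56 in the other mutants. The brighter Meis2 probe had a wild-type log2 intensity of 13.74 in pair 4, against 14.06 to 14.11 in the other wild types. Tcf21 had a log2 ratio of -0.31 in pair 4, against 0.24 to 0.33 in the other pairs.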

How the results depend on the processing

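Of 144 member values under 16 alternatives, 143 kept their direction and 141 also their side of the threshold. Fat4 turned to -0.0195 on arrays with mutant RNA in Cy5 alone. Tbx18 passed the threshold with median centring and with the pair as a random block, where its log2 ratio was 0.73 and 0.57; its adjusted p over all alternatives ran from 0.0445 to 0.762. Limma called 42 genes with median centring and 39 with the pair block, against 0 otherwise. The median of the 9 genes, 0.16, was 0.33 with median centring and 0.0757 on arrays with mutant RNA in Cy5 alone, where 2 members were higher on every array, against 4 in every pair. The cause was not tested. With 1 pair left out that median ran from 0.15 to 0.22, the members higher in every pair from 4 to 6, and the genes called stayed at 0. The pair block changed the call of no other member, and its single correlation of 0.586 stood for all genes. With the Y-linked covariate the median was 0.09. The slide as a block was not run, as there was 1 slide.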
